A study of Mus musculus with 12 samples.

Results

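Of 4286 Mirlet7d ChIRP-seq peaks deposited for MLE-12 cells, 288 lay on a SINE, a short interspersed repeat. They were taken from the deposited peak annotation as the rows whose detailed entry names SINE as the repeat class. That annotation names a repeat only for intronic and intergenic peaks, of which there were 3542. SINE peaks therefore made up 8.13% of the peaks that could carry the name (95% exact interval 7.25 to 9.08%), beside 6.89% for LINEs and 9.09% for LTR elements. MLE-12 is a mouse lung epithelial line, derived from lung tumours of mice that carried a viral large T antigen under a surfactant protein C promoter. ChIRP-seq recovers DNA attached to an RNA through biotinylated probes; here 150 pmol of tiling probes against mature Mirlet7d met MLE-12 chromatin for 4 h, and an input library belongs to it. The ChIRP library is labelled Mirlet7d under a tag for gain of function, whereas its protocol describes no transfection. In the other assay MLE-12 cells received 25 nM of biotinylated Mirlet7d, were harvested after 48 h, and the RNA held on streptavidin beads was sequenced beside an input. Every group was 1 library, no control capture was used here, and no value below carries a replicate error. The intervals given are exact and cover counting error only, because peaks of 1 library are not replicates.

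SINEs are short retroelements without coding capacity that RNA polymerase III transcribes and that spread with the enzymes of LINEs. In mice the Alu class is represented by B1 elements, which descend from the RNA of the signal recognition particle, while B2, ID and the old MIR elements derive from tRNA-like genes and B4 elements join ID and B1 sequence. SINEs are known to lie preferentially in gene-rich DNA, often in introns and near promoters, whereas LINEs gather in gene-poor DNA. Let-7 microRNAs act mostly in the cytoplasm on mRNAs, which they recognise through the seed at their 5′ end.

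The labels name mature Mirlet7d without its arm, so both mature arms are printed with the seed, bases 2 to 8, in capitals. The sequences are from RefSeq (GRCm38.p6, chromosome 13, minus strand).
mmu-let-7d-5p: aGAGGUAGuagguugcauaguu
mmu-let-7d-3p: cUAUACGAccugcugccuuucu
The DNA letters complementary to the seed of the 5p arm, which the let-7 family shares, are CTACCTC, and these were looked for in promoter windows of genes whose start lay close to a SINE peak. The 3p seed was not searched, and the sequences under the peaks were not used here. Of the 5 SINE peaks within 1 kb of a transcription start site (TSS), only the one at Pex10 reached over the start itself. Its promoter, the 250 bases before the RefSeq start (GRCm38.p6, chr4:155066780-155067029, plus strand), is printed with the seed complement in capitals.
Pex10 promoter: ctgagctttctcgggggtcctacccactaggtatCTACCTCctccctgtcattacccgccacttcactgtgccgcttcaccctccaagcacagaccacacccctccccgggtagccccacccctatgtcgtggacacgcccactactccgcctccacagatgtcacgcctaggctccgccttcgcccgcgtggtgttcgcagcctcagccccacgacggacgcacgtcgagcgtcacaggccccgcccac
With both strands searched, the window held 1 match, at -216 to -210 from the start, whereas the peak spanned -130 to 586 on the distances of the deposited annotation. If both annotations place the start alike, the match lay outside the peak. Of 32851 promoter windows in the RefSeq table, 3.23% hold these letters on one strand or the other. A match is a description of letters and not a binding site.

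The SINE peaks fell into 5 families and 30 subfamilies. The Alu family, which is B1 and its relatives, held 108 peaks (37.5%, interval 31.9 to 43.4%), and the B4 family held 92 (31.9%, 26.6 to 37.7%). B2 had 45 peaks (15.6%, 11.6 to 20.3%) and MIR, a family shared by all mammals, had 35 (12.2%, 8.61 to 16.5%). ID elements had 8 (2.78%). Thus 2 families carried most of the members.

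Within Alu, the proto-B1 elements and the B1_Mus elements had 31 peaks each, B1F had 19, B1_Mur 18 and B1_Mm 9. The most frequent single subfamilies belonged to other families: B4A had 30 peaks, ID_B1, which the annotation places in the B4 family, had 28, and the B2-related B3 had 23. B1_Mus1 with 18 peaks led the Alu subfamilies. B2 peaks were mostly on B3 and B3A (23 and 12 peaks), with 7 on B2_Mm2, 2 on B2_Mm1t and 1 on B2_Mm1a. How much of the mouse genome each subfamily covers was not used here, so these counts give the composition of the peaks and not an enrichment.

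**Figure D1:**
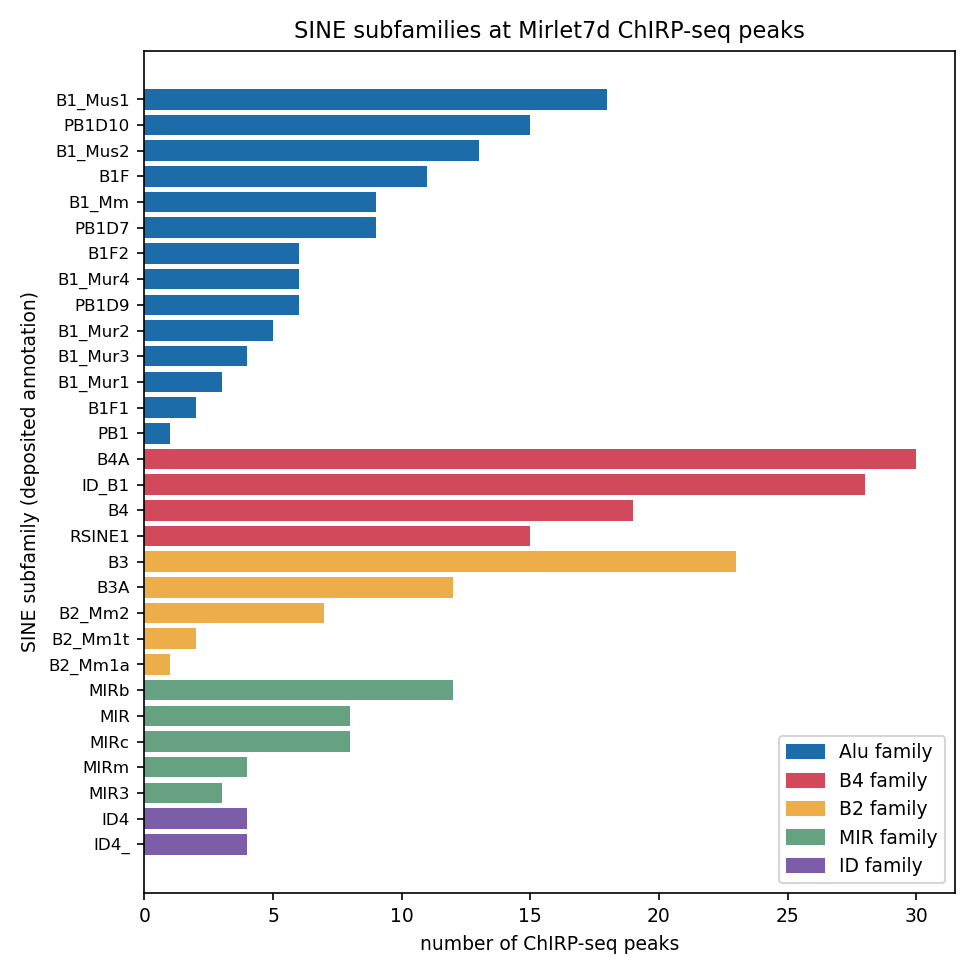
Number of ChIRP-seq peaks (horizontal axis) on each of 30 SINE subfamilies (vertical axis), coloured by family, from 1 library. B4A with 30 peaks and ID_B1 with 28 stand highest, while the 108 Alu peaks are spread over many B1 subfamilies.

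The deposited MACS score, which serves here only to rank peaks within the list, ran from 30.02 to 76.91 on SINEs, with a median of 33.85 and quartiles of 31.54 and 37.6. Most SINE peaks thus sat just above the lower end of the list, whose lowest value over all peaks was 30.01. The whole list did so too, with a median of 34.3 and a lower quartile of 31.66 over all peaks. The median was 34.085 for the other intronic and intergenic peaks, 33.465 for LINE and 33.33 for LTR peaks. Against all peaks not on SINEs the SINE median differed by -0.48 (interval -1.25 to 0.14), which was not resolved. The lowest SINE scores were those of the peak on ID_B1 near Eif2ak4, a kinase that senses uncharged tRNA, at 30.02 and the one on B1F near Epb4.1l1, a membrane skeleton protein, at 30.05. A score of at least 40 was reached by 47 SINE peaks (16.3%, interval 12.2 to 21.1%), against 23.6% of the other intronic and intergenic peaks (odds ratio 0.632, interval 0.448 to 0.878) and 24.8% of all peaks. LINE peaks reached it in 17.2% and LTR peaks in 14.3%, which lie within the interval of the SINE share. On chromosomes 6, 8, 11, 16 and 19, which an earlier account of these data found rich in peaks, the shares were 19.5% for SINE peaks and 26.8% for the other intronic and intergenic peaks (odds ratio 0.660, 0.439 to 0.970). On the remaining chromosomes they were 10.7% and 18.5% (0.528, 0.250 to 1.01), so the direction was the same in both and the second interval includes 1.

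Alu peaks reached a score of 40 in 21.3% of cases, MIR in 17.1%, B4 in 12.0% and B2 in 11.1%. The odds ratio of Alu over B4 was 1.99 with an interval of 0.864 to 4.82, so the order of these families was not resolved at these counts. Among Alu groups the B1_Mm peaks had the highest median score, 38.72 over 9 peaks. SINE peaks were 643.5 bases wide at the median (347 to 2908), and 24 were wider than 1 kb, against a median of 638 bases for the other intronic and intergenic peaks.

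**Figure D2:**
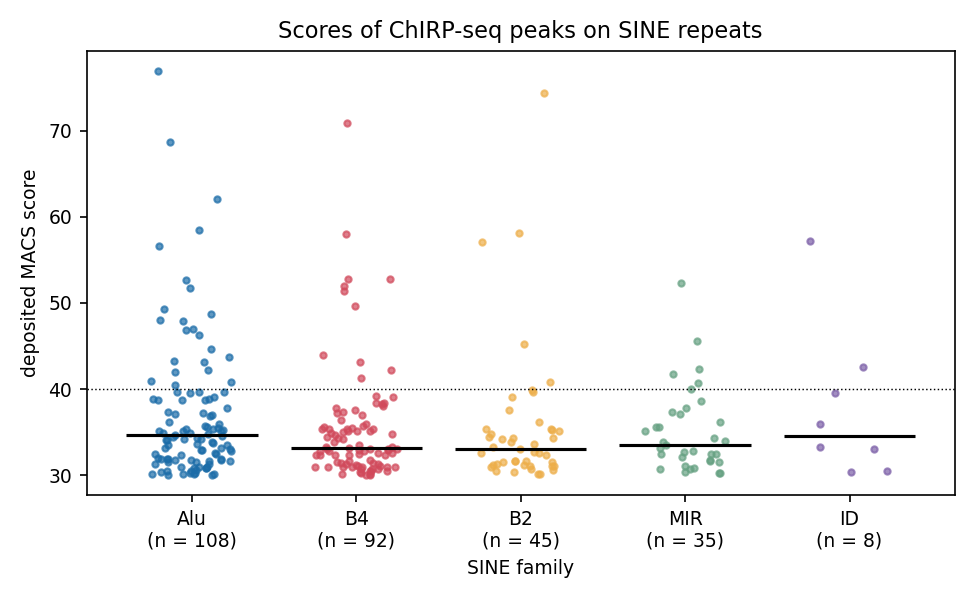
Deposited MACS score (vertical axis) of each of 288 SINE peaks by family, with 1 point per peak, a bar at the family median and a dotted line at 40. Medians lie between 33.01 for B2 and 34.63 for Alu, and the few peaks above 60 belong to Alu, B4 and B2.

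The 10 highest SINE scores lay on 5 chromosomes. The top peak, of 76.91, stood on PB1D10 in intron 3 of Adat1, which encodes an adenosine deaminase acting on tRNA (mm9, chr8:114512482-114514267). It was 1786 bases wide and lay 2828 bases downstream of the start. A B3 element near Plekhg6, a gene with a RhoGEF domain, carried a peak of 74.3 at chr6:125378644-125380316, 48958 bases upstream of the start, which led the B2 family. The third, of 70.86, was on an ID_B1 element 6170 bases upstream of Mir23a, a microRNA gene, at chr8:86725640-86726854, and led the B4 family. These were the highest members of 3 different families.

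Cdk10, a cyclin-dependent kinase gene, followed with 68.62 on B1_Mus1 at 1503 bases upstream of its start, and Man1c1, which encodes a mannosidase of the Golgi, with 62.03 on B1_Mus1. Eif4enif1, which encodes a protein that carries the cap-binding factor eIF4E, had 58.48 on B1_Mur4 in intron 4. Ifnar2, a subunit of the type I interferon receptor, had 58.16 on B3 at 4266 bases upstream. Gm10791, a predicted non-coding gene, had 58.03 on B4. Map3k14, a kinase of the non-canonical NF-kB pathway, had 57.19 on ID4_, the highest ID element, and Mpv17l2, a mitochondrial protein, had 57.09 on B3. The highest MIR score was lower, 52.34 on MIR3 in intron 1 of Sema5b, a semaphorin. Of these genes 1, Eif4enif1, stood on the list of promoter-associated ncRNAs from the pull-down. The nearest gene was on that list for 5.56% of all SINE peaks and 8.77% of all peaks.

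SINE peaks lay within 10 kb of a gene's start more often than other intronic and intergenic peaks did, though not more often, beyond counting error, than all peaks not on SINEs, which include those at promoters. Within 10 kb of a TSS were 135 of 288 (46.9%, interval 41.0 to 52.8%), against 42.3% of all peaks not on SINEs (odds ratio 1.20, 0.939 to 1.54) and 42.6% of all peaks. Among the other intronic and intergenic peaks, the group in which a repeat can be named, the share was 32.5% (odds ratio 1.83, interval 1.42 to 2.35). Those without any named repeat had 35.1% (1.63, 1.26 to 2.10), LTR peaks 26.4% (2.46, 1.73 to 3.51) and LINE peaks 14.8% (5.08, 3.29 to 8.01). The median distance was 10919.5 bases for SINE peaks, 23112 for LTR peaks and 43240 for LINE peaks. No genome-wide expectation for these distances was computed here.

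The share was also taken for each chromosome group. On chromosomes 6, 8, 11, 16 and 19 the share within 10 kb was 53.5% of 185 SINE peaks against 34.4% of the other intronic and intergenic peaks (odds ratio 2.19, 1.60 to 3.01). On the remaining chromosomes it was 35.0% of 103 SINE peaks against 29.6% (1.28, 0.813 to 1.98), an interval that includes 1. Set against all other peaks there, promoters included, the ratio fell below 1, at 0.851. Whether the 2 chromosome groups differ in this ratio was not tested.

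Within 1 kb of a start the ratios were below 1, but among intronic and intergenic peaks this direction was not resolved. Only 5 SINE peaks (1.74%, interval 0.566 to 4.00%) lay within 1 kb, against 3.96% of the other intronic and intergenic peaks (odds ratio 0.428, 0.136 to 1.04, which includes 1) and 14.7% of all peaks not on SINEs (0.103, 0.0329 to 0.244). No SINE peak fell in the promoter, exon, UTR or transcription end classes, where the annotation names no repeat. Of the 587 peaks not on SINEs within 1 kb, only 129 were intronic or intergenic. The second of these contrasts thus follows largely from how the peaks were named. By distance, SINEs took 10.5% of the intronic and intergenic peaks within 2 kb of a TSS and 13.9% (interval 10.6 to 17.8%) from 2 to 5 kb. They took 9.71% from 5 to 10 kb, 8.89% up to 25 kb, 5.95% up to 50 kb and 4.77% up to 100 kb. Beyond 100 kb they took 4.86% (3.07 to 7.26%), where LINEs took 17.4% and LTR elements 12.1%.

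Among the families, the widest gap in this share was that between Alu and B4. Alu peaks lay within 10 kb of a TSS in 65 of 108 cases (60.2%, interval 50.3 to 69.5%). B4 peaks did so in 31 of 92 (33.7%, 24.2 to 44.3%). The odds ratio of Alu over B4 was 2.96 (1.60 to 5.54). It was 2.94 (1.36 to 6.51) on the chromosomes rich in peaks and 3.58 (1.10 to 13.1) on the others. These intervals make no allowance for setting the family with the highest share, Alu, against the one with the lowest, B4. B2 with 42.2% and MIR with 45.7% lay between them, and their intervals overlap those of both. The median distance was 7565.5 bases for Alu and 17039.5 for B4, and within Alu the proto-B1 elements had the shortest, 3269 bases over 31 peaks. Beyond 100 kb lay 1 of 108 Alu peaks and 13 of 92 B4 peaks, beside 453 of all 3542 intronic and intergenic peaks. Within 10 kb the B4 share was close to the 32.5% of the other intronic and intergenic peaks, a value below the Alu interval.

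**Figure D3:**
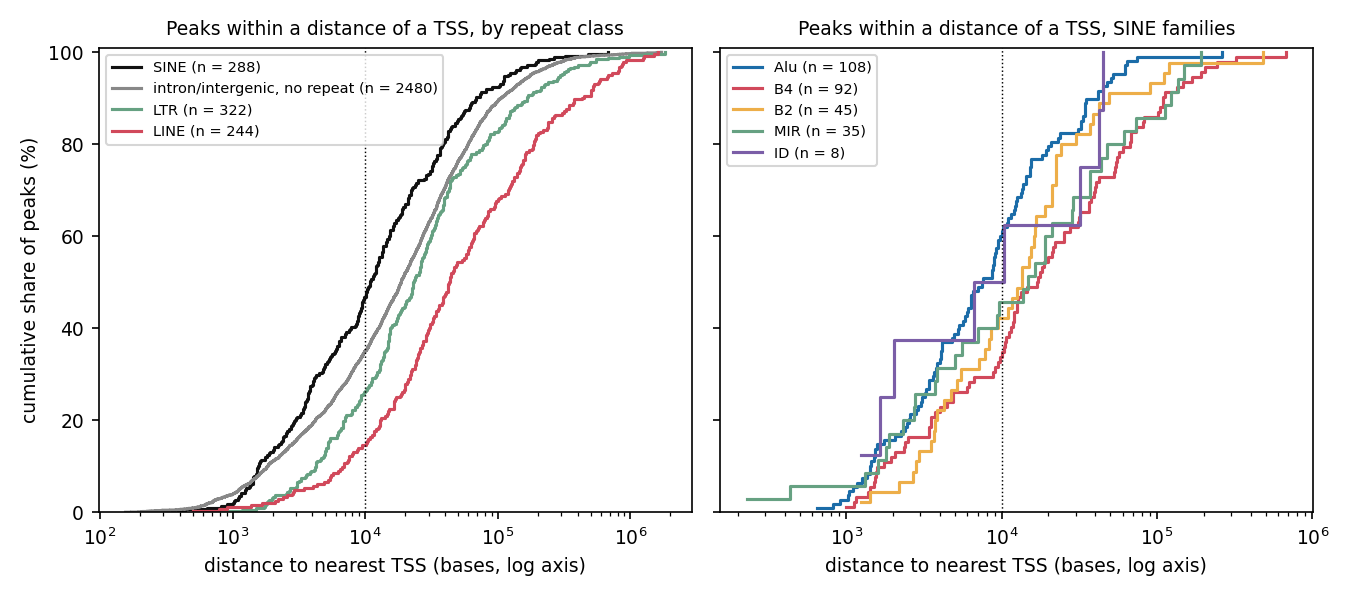
Cumulative share of peaks (vertical axis, %) within a distance of the nearest TSS (horizontal axis, bases, log scale), for SINE peaks beside intronic and intergenic peaks with no repeat, LTR and LINE peaks (left) and for the 5 SINE families (right), with a dotted line at 10 kb. At 10 kb the SINE curve stands at 46.9% against 35.1%, 26.4% and 14.8%, and Alu stands at 60.2% with B4 at 33.7%.

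The 5 SINE peaks nearest to a start were in introns. Pex10, which encodes a ubiquitin ligase of peroxisome assembly, had a MIR element 228 bases downstream of its start with a score of 37.37, the peak described with its promoter above. Slc6a13, a transporter of GABA and taurine, had MIRb at 435 bases (32.49), and the potassium channel gene Kcnk6 had PB1D7 at 643 bases (37.28). Ezh1, a catalytic subunit of the Polycomb repressive complex PRC2, had B1_Mus2 at 817 bases (47.92). Anapc11, the RING subunit of the anaphase-promoting complex, had B1_Mus1 at 906 bases (31.76). None of the promoter windows of Slc6a13, Ezh1 and Anapc11 held the seed complement.

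SINE peaks were intronic in 143 cases (49.7%, interval 43.7 to 55.6%) and intergenic in 145, beside 51.7% intronic among the other intronic and intergenic peaks and 42.6% among all peaks. Of the intronic ones 59 (41.3%, 33.1 to 49.8%) lay in a first intron, against 39.3% of the other intronic peaks and 24.5% (16.4 to 34.2%) of LINE peaks. Relative to the nearest start, 129 SINE peaks (44.8%) were upstream and 159 downstream. Upstream lay 41.9% of the other intronic and intergenic peaks (odds ratio 1.13, 0.877 to 1.45) and 43.9% of all peaks not on SINEs. The intron belongs to whichever transcript covers the peak, which need not be the gene whose start is nearest.

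By chromosome, 185 SINE peaks (64.2%, interval 58.4 to 69.8%) lay on 6, 8, 11, 16 and 19, against 62.1% of the peaks not on SINEs (odds ratio 1.10, 0.851 to 1.42) and 62.2% of all peaks. SINE peaks thus followed the uneven spread of the whole list. They reached 0.234 to 0.494 per Mb on these 5 chromosomes and 0.0240 to 0.0787 per Mb on the other 15. LTR peaks were on the 5 in 54.0% of cases (odds ratio of SINE over LTR 1.53, 1.09 to 2.15). The copy number of these chromosomes in the line was not tested.

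Chromosome 11, singled out after its values were seen, carried 60 SINE peaks, the most of any chromosome. They were 12.3% of its intronic and intergenic peaks (interval 9.52 to 15.5%), against 7.47% on all other chromosomes together (odds ratio 1.74, 1.26 to 2.36). Chromosome 6, with 37 SINE peaks, had 6.86% and chromosome 16, with 23, had 6.97%. By distance, the share on chromosome 11 beyond 10 kb of a TSS was 11.2% (7.55 to 15.9%), against 5.98% (5.00 to 7.08%) on the other chromosomes. Within 10 kb it was 13.3% (9.34 to 18.2%) against 10.8% (8.88 to 12.9%). Of the 60, 53 lay beyond 70 Mb, as did 564 of the 625 peaks of all kinds on this chromosome. Family composition varied with the chromosome, with 27 Alu and 15 B4 peaks on 11, 22 and 14 on 8, but 5 and 17 on 6.

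**Figure D4:**
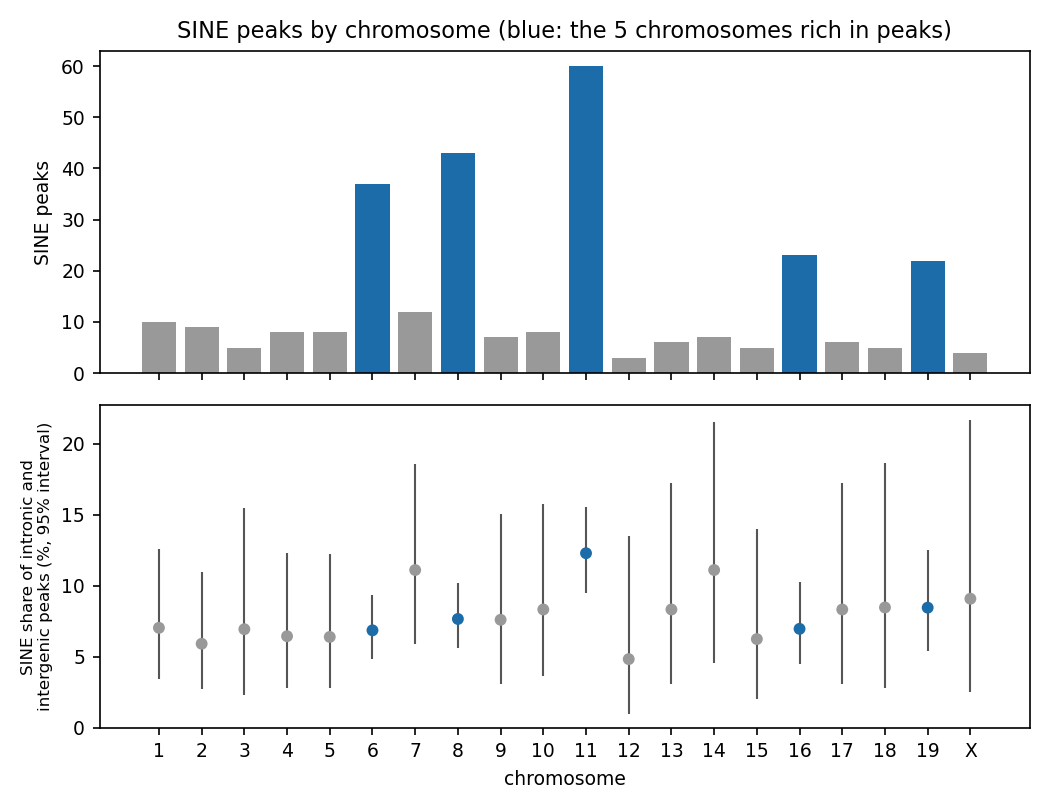
Number of SINE peaks per chromosome (top) and SINE share of the intronic and intergenic peaks of that chromosome with its 95% exact interval (bottom, %), with chromosomes 6, 8, 11, 16 and 19 in blue and chromosome Y, which had no SINE peak, left out. Counts are high on the 5 blue chromosomes, while the shares of most chromosomes overlap and chromosome 11 stands at 12.3%.

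Another peak of any kind lay within 10 kb of 73 SINE peaks (25.3%, interval 20.4 to 30.8%), against 21.5% of all peaks, 21.2% of those not on SINEs and 21.5% of intronic and intergenic peaks without a repeat, which lie within the SINE interval. It was 19.6% for all other intronic and intergenic peaks, 13.4% for LTR and 8.20% for LINE peaks. Pairs of SINE peaks within 10 kb of each other numbered 2, both on chromosome 11. At Cdk3-ps, a pseudogene of a cyclin-dependent kinase, an RSINE1 peak of 35.35 and a B4 peak of 39.2 were 1236 bases apart, in consecutive introns. At Gm11627 a MIRb peak of 30.79 and a PB1D7 peak of 37.14 were 7792 bases apart.

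The 288 peaks had 280 nearest genes, and 8 genes were nearest to 2 SINE peaks each. Besides Cdk3-ps and Gm11627 these were the kinase gene Dyrk1a (MIRc at 41.7 and B1F at 34.6), Emp1, an epithelial membrane protein (MIRm at 31.13, ID_B1 at 32.85), and Gprc5a, an orphan receptor expressed in lung epithelium (B3 at 31.51, B4A at 33.01). St3gal2, a sialyltransferase, had PB1D7 at 33.64 and B4 at 33.08. Tex2 had PB1D10 at 32.38 and B1_Mur4 at 32.61, and the antisense gene Fam120aos had B2_Mm2 at 30.44 and B1_Mur4 at 30.14. All 8 pairs joined different subfamilies.

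The nearest gene was protein coding for 258 SINE peaks, non-coding for 26 and a pseudogene for 4. The non-coding ones included 5 microRNA genes, Mir23a, Mir6931, Mir653, Mir7231 and Mir3075. The shares of these gene types among all peaks were not used here, so these counts only describe the SINE peaks. Malat1, a nuclear long non-coding RNA, was nearest to a B1_Mus1 peak of 34.19 that lay 13636 bases downstream of its start.

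Members of 5 gene lists were looked up among the 280 genes. Of 29 let-7 target genes 1 was nearest to a SINE peak, the growth factor receptor gene Igf1r, with B1_Mm in intron 1 at 31.54. Of 22 genes of the nuclear exosome and PRC2 there was Ezh1 alone, and of 18 genes of retroelement silencing Hells alone, a chromatin remodeller needed for DNA methylation at repeats, with ID_B1 in intron 2 at 36.97. None of 28 genes of the RNA polymerase III machinery was nearest to a SINE peak. With 1.01% of all curated RefSeq genes nearest to one, lists this short cannot tell counts of 0 or 1 from that background. For peaks of any kind the shares were 27.6% of the let-7 list and 18.2% of the exosome and PRC2 list. They were 22.2% for retroelement silencing and 10.7% for RNA polymerase III, against 11.4% of all curated genes. Of 26 lung epithelial genes 3 were. Sftpb, which encodes surfactant protein B, had B3A at 34.25, 9439 bases upstream. Scgb1a1, the club cell secretoglobin, had B1_Mus1 at 30.82, 15222 bases downstream of its start. Etv4, a transcription factor of the branching lung, had PB1D7 at 36.98, 19312 bases downstream. The last 2 peaks were intronic, in a transcript that need not belong to the lung gene. These 3 are 11.5% of the lung list, whereas over all curated RefSeq genes 264 of 26216 (1.01%) were nearest to a SINE peak. For peaks of any kind the corresponding values were 10 of 26 lung genes (38.5%) and 2995 of all genes (11.4%). The lung list was known from earlier results to have many peaks, and with 3 genes its excess over the background was not tested here.

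ncRNAs enriched in the Mirlet7d pull-down were set against the SINE peaks by position. An ncRNA candidate lay within 10 kb of 25 SINE peaks (8.68%, interval 5.70 to 12.5%), against 9.99% of the other intronic and intergenic peaks (odds ratio 0.857, 0.536 to 1.32), 12.7% of all peaks not on SINEs (0.655, 0.412 to 1.00) and 12.4% of all peaks. The share was thus within counting error of that of comparable peaks. At a limit of 50 kb it was 41.0% (35.2 to 46.9%), against 32.9% of the other intronic and intergenic peaks (1.42, 1.10 to 1.82) and 37.1% of all peaks. Only the share at the limit of 10 kb was split by chromosome group. On the chromosomes rich in peaks that share was 9.73% against 9.98% (0.972, 0.550 to 1.63). On the others it was 6.80% against 9.99% (0.657, 0.252 to 1.45). Near starts, where SINE peaks were more frequent, 15 of 135 (11.1%, 6.35 to 17.7%) had an ncRNA within 10 kb, against 17.0% of 1059 other intronic and intergenic peaks (0.611, 0.324 to 1.08).

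Alu and B4 differed in this share at the limit of 10 kb. This share was 9.99% for the other intronic and intergenic peaks and 12.4% for all peaks. Both values lie within the Alu interval and above the B4 interval. An ncRNA candidate lay within 10 kb of 15 of 108 Alu peaks (13.9%, interval 7.99 to 21.9%) and of 3 of 92 B4 peaks (3.26%, 0.678 to 9.23%), an odds ratio of 4.75 (1.28 to 26.5). On the chromosomes rich in peaks the ratio was 5.83 (1.22 to 55.9), and on the others, with 3 Alu peaks and 1 B4 peak, 2.71 (0.205 to 148). Among peaks within 10 kb of a TSS it was 12 of 65 for Alu (18.5%, 9.92 to 30.0%) and 0 of 31 for B4, where 3 counts would be a share of 9.68% and the exact interval ends at 11.2%. The exact interval of this odds ratio begins at 1.48. The other intronic and intergenic peaks within 10 kb of a TSS had 17.0%, which lies within the Alu interval and above that of B4. Farther from starts the shares were close, 3 of 43 for Alu (6.98%, 1.46 to 19.1%) and 3 of 61 for B4 (4.92%, 1.03 to 13.7%). With a limit of 50 kb the odds ratio was 1.77 (0.967 to 3.25), an interval that includes 1. B2 had 1 of 45 and MIR 5 of 35. These families were compared after their shares had been seen.

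A pulled-down ncRNA overlapped 9 SINE peaks (3.13%, interval 1.44 to 5.85%), against 2.40% of the other intronic and intergenic peaks and 3.43% of all peaks. Of the 9 peaks 6 were Alu, 2 B4 and 1 MIR. The odds ratio of Alu over B4 was 2.64 (0.457 to 27.3), an interval that includes 1. At Ezh1 the transcript NONMMUT012051 had 1.818 RPKM in the pull-down and 0.232 in the input, a fold of 7.84 in the authors' deposited table. Its recovered 219 pull-down and 18 input reads give an interval of 4.01 to 17.7. At Klf1, an erythroid transcription factor, 3 ncRNAs overlapped a B1_Mm peak of 38.72 that lay 3839 bases upstream of the start. The one with the highest fold, NONMMUT066423, had 1.894 RPKM in the pull-down and 0.035 in the input, 54.11-fold in the authors' deposited table, but its 2 input reads leave an interval of 9.59 to 2192. The best covered one, NONMMUT066422, had 3.925 RPKM in the pull-down and 0.227 in the input, and its 401 and 15 reads give an interval of 8.07 to 38.1. At these and the other 7 peaks the pull-down value was above the input by construction, since the deposited list holds enriched transcripts only.

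Among the remaining overlaps, Rbm25, a splicing factor gene, had a PB1D9 peak of 31.8 in intron 1 and an ncRNA at 8.165 RPKM in the pull-down and 1.393 in the input (interval of the ratio 4.04 to 8.81). Gm20735 had PB1D9 at 36.15 and 2 overlapping ncRNAs, of which the 1 shown was at 1.523 and 0.205 RPKM (3.24 to 20.9). Iqce, which encodes a protein of the primary cilium, had B1F at 30.21 and an ncRNA at 0.457 and 0.035 RPKM (3.44 to 113), on 4 input reads. Sf3b2, a subunit of the splicing factor SF3b, had PB1D10 at 30.1 and an ncRNA at 15.85 and 6.254 RPKM (2.20 to 2.91). The B4 family was represented by Mrpl33, a protein of the mitochondrial ribosome, and Ipo8, an importin. The ncRNA at Mrpl33 was the most abundant of the 9, with 52.266 RPKM in the pull-down and 20.733 in the input (2.42 to 2.63), and that at Ipo8 had 0.746 and 0.207 RPKM (1.99 to 7.13). The single MIR overlap, a MIRb peak of 33.52 nearest to Rad18, a ubiquitin ligase of DNA damage tolerance, lay 112101 bases upstream of that gene, and its ncRNA had 1.205 and 0.371 RPKM (2.46 to 4.35).

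**Figure D5:**
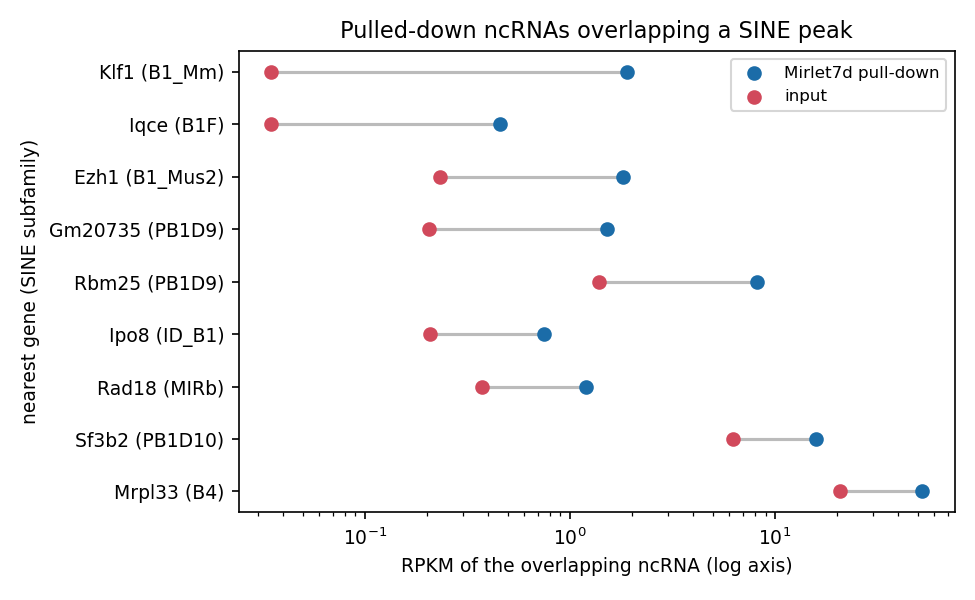
RPKM (horizontal axis, log scale) of 1 overlapping pulled-down ncRNA for each of the 9 SINE peaks that overlap any, in the Mirlet7d pull-down (blue) and its input (red), 1 library each, with the nearest gene and SINE subfamily on the vertical axis. Levels in the pull-down run from 0.457 at Iqce to 52.266 at Mrpl33, and the gap to the input is widest at Klf1.

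By gene name, 16 SINE peaks (5.56%, interval 3.21 to 8.87%) had a nearest gene on the list of promoter-associated ncRNAs, against 8.33% of the other intronic and intergenic peaks (odds ratio 0.648, 0.359 to 1.09), 9.0% of all peaks not on SINEs (0.595, 0.331 to 0.997) and 8.77% of all peaks. Of the 16, 10 were Alu, 4 B4, 1 B2 and 1 MIR. The odds ratio of Alu over B4 was 2.24 (0.617 to 10.1), an interval that includes 1. After Eif4enif1 and Ezh1 the highest scores were at Ccm2, a scaffold protein known from cerebral cavernous malformations, with B1_Mus2 at 43.1, at Nf1, an inhibitor of RAS, with RSINE1 at 41.27 and at Pigw, an enzyme of GPI anchor synthesis, with B1_Mus2 at 40.84. Klf1, Mrpl33 and Ipo8 came next, followed by Zdhhc7, a palmitoyltransferase, with B1_Mur1 at 34.21 and Malat1 at 34.19. The ncRNA at Zdhhc7 had 10.272 RPKM in the pull-down and 2.764 in the input (2.54 to 5.65), and that at Nf1 5.279 and 1.903 RPKM (2.02 to 3.80). A match by name does not place the ncRNA beside the peak. The distance was 1424 bases at Zdhhc7 and 39757 bases at Nf1. The inputs at Ccm2 and Pigw are listed at exactly 1 RPKM, and no interval was computed for them.

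The mRNA side showed no larger share. The nearest gene was on the list of pulled-down mRNAs for 16 SINE peaks (5.56%), against 6.61% of the other intronic and intergenic peaks and 6.51% of all peaks, and 4 genes were on both lists. The span of a listed mRNA overlapped 6 SINE peaks (2.08%, interval 0.768 to 4.48%), against 3.44% of the other intronic and intergenic peaks and 3.71% of all peaks. Of the 6 peaks 4 were B4 and 1 was Alu. The odds ratio of Alu over B4 was 0.207 (0.00414 to 2.14), an interval that includes 1. The 4 B4 peaks lay in Map7d2, Megf11, Myo15, an unconventional myosin of hair cells, and within the span of Rai14. The other two were on PB1D10 at Ninj2, a ninjurin adhesion protein, and on MIRb at Gngt2, a G-protein gamma subunit. Of the 6 transcripts, that of Rai14 had the highest level, 1.735 RPKM in the pull-down and 0.465 in the input, and the others were at or below 0.086 RPKM in the pull-down.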

How the data were processed

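Of 12 libraries of MLE-12 cells, each alone in its group, the tables of 2 samples, ChIRP-seq and pull-down, were used. Cell type markers could not be checked in these selected lists. The genome build was mm9, per the submitters' processing notes, which list FastQC, Bowtie2, SAMtools and HOMER for both assays, MACS for ChIRP-seq, Trimmomatic and Picard 1.119 for the pull-down, and bedtools for either one (2.15 in the pull-down), without saying which step each tool did. The authors deposited 1 MACS score per peak, and the deposited annotation gives class, repeat, nearest gene and signed distance to its TSS. The pull-down tables hold RPKM of input and pull-down and their fold, per the file headers, for enriched transcripts only (6208 ncRNAs, 2432 of them promoter-associated, and 1964 mRNAs). Depth of the ChIRP library is unknown.

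Computed here: peaks joined to coordinates by identifier, distances from peak edges to transcript spans (overlap of at least 1 base, strand ignored), shares with Clopper-Pearson intervals and conditional odds ratios with exact intervals at 95% (Python 3.11.15, scipy 1.17.1). In promoters with several peaks, 670 of 672 gave the same TSS within 2 bases when measured from the peak centre. Reads were recovered from RPKM times length (denominators of 14.97 M reads for the pull-down and 9.66 M for the input of ncRNAs; all tested values within 0.15 reads of a whole number), and fold intervals count read pairs, because 73.0% of the pull-down and 79.6% of the input numbers were even; PCR copies are not separable. With 1 library per group no p-value is given. The comparison group of other intronic and intergenic peaks was added after seeing the data. Of the 280 gene names 279 matched RefSeq (GRCm38.p6), used only for names, sequences and the background of curated genes beside the gene lists. Members, lists and tests were chosen with earlier results of these data known. Genes were named by fixed rules: the 10 highest scores, the highest of each family, the 5 nearest to a TSS, the 10 highest of those on the promoter-associated ncRNA list and all overlaps with an ncRNA, genes with 2 SINE peaks, list members and the 2 lowest scores; the overlaps with mRNA spans and the microRNA genes were named beside these.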

Additional observations from a re-analysis of the deposited data

How the results depend on the processing

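Across 41 alternatives for 9 results, 28 values kept their direction and stayed within the interval of the reported one or, for counts, within 1.5 times of it. With a score of at least 40, 47 SINE peaks remained, the Alu share was 48.9% and the odds ratio for a TSS within 10 kb against all other peaks (1.20 with every peak, interval 0.939 to 1.54) was 1.75. That ratio was 1.57 at 50 kb and turned to 0.103 at 1 kb. It was 3.24 against LINE and LTR peaks, 1.83 against other intronic and intergenic peaks, 1.63 against those without a repeat, and 0.851 without chromosomes 6, 8, 11, 16 and 19. The ratio for these chromosomes was 1.43 against LINE and LTR peaks. For ncRNA candidates within 10 kb the ratio against all other peaks was 0.655 (0.412 to 1.00) and turned to 1.19 at 50 kb. The median width differed by -2.5 bases from that of all other peaks, by 13 without those chromosomes and by 5.5 against intronic and intergenic peaks, all within its interval of -24 to 19. The comparison group is set by the annotation, which names repeats outside promoters and exons only; for the other changes the cause was not tested. No paired analysis was possible because each group has 1 library. Peaks of 1 library without a control capture limit every comparison, and families with few peaks, ID above all, have wide intervals.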
